A study of Homo sapiens with 6 samples.

Results

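The 8 genes KHSRP, FUBP1, ELAVL1, TIA1, TIAL1, KHDRBS1, QKI and SF1 encode RNA-binding proteins that act on AU-rich or U-rich RNA, on the branch point or on other short motifs of pre-mRNA. The features studied were all those that the platform annotation assigned to one of these symbols or to a transcript of one of them, 683 of 40146 named features, in 8 of 843 named genes. RNA of Hep3B cells that had received 10 J/m2 of UV light and were collected 6 hours later was compared with RNA of untreated Hep3B cells, on 6 two-colour arrays designed to read alternative splicing. Hep3B is a human hepatocellular carcinoma line that is known to lack p53, a background that both groups share. There were 3 biological replicates, and each was hybridised once with the UV sample in Cy5 (the direct array) and once with the UV sample in Cy3 (the dye-swap array). Both arrays of a replicate were averaged, so n is 3 for every gene mean.

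AU-rich elements are short stretches in the untranslated regions of many unstable mRNAs, such as those of cytokines and of early response genes. KHSRP binds them and recruits the decay machinery, whereas ELAVL1, also called HuR, binds similar sites and protects the transcript. TIA1 and TIAL1 (TIAR) silence translation, gather mRNA in stress granules, and in the nucleus bind U-rich stretches beside weak 5′ splice sites, where they help U1 snRNP to bind. KHDRBS1 (Sam68) and QKI belong to the STAR family of KH domain proteins and regulate splicing, and SF1, which has a related fold, binds the branch point before U2 snRNP does. FUBP1 is a close relative of KHSRP that binds single-stranded DNA upstream of MYC as well as RNA.

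All values are log2 ratios of UV over untreated, so a positive value means a higher signal after UV, and they hold no absolute level. Of the 45220 features of an array, 36532 to 38392 had a value. Correlations between arrays ran from 0.882 to 0.943 among direct arrays and from 0.836 to 0.919 among dye-swap arrays, but from 0.538 to 0.663 between orientations. The error given is the standard error (SE) as moderated by limma, which covers the spread between replicates and leaves out a dye difference that recurs in each replicate. No hepatocyte marker of the list used was among the tested genes, so the labelled cell type could not be checked. Of 6 markers of other cells, only CD14 was tested, at a log2 ratio of 0.25 (SE 0.0434, 1 feature).

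At the level of gene means, TIA1, TIAL1, QKI and ELAVL1 were lower after UV, KHSRP and SF1 were higher, and FUBP1 and KHDRBS1 did not pass an adjusted p of 0.05. Thus 4 members fell and 2 rose. As the arrays were centred, a rise or fall is measured relative to most other features, and in RNA of whole cultures fewer cells of a kind and less RNA per cell cannot be told apart. Over all 775 genes tested, 41.4% were called lower and 30.3% higher by the same limit. With a fold over 1.3 added, 18.8% of the tested genes were lower and 2.06% were higher, while 0 members passed in either direction. The median log2 ratio of all tested genes was -0.03.

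**Figure D1:**
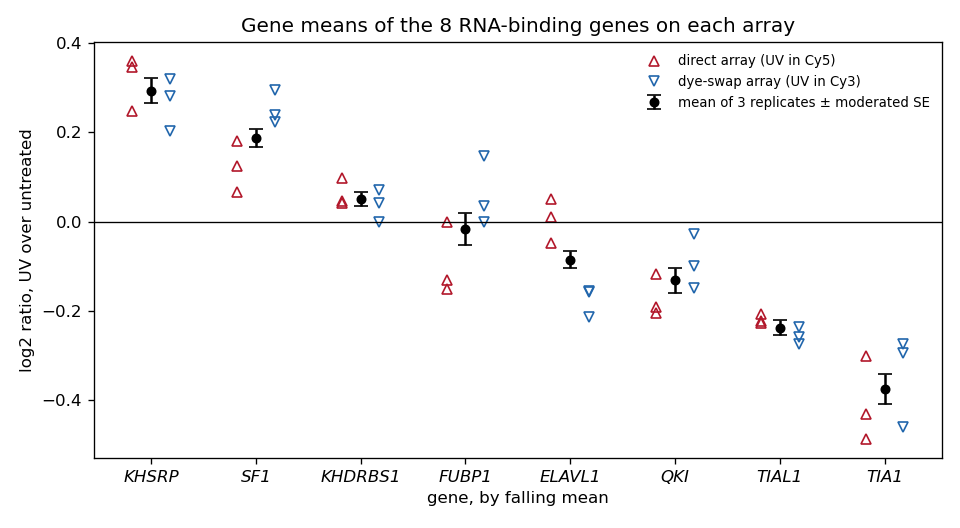
The y axis is the log2 ratio of UV over untreated, and each column is a gene, ordered by its mean. Upward triangles are direct arrays, downward triangles are dye-swap arrays, and black points with bars are the mean of 3 replicates with the moderated SE; KHSRP lies above 0 and TIA1 and TIAL1 below 0 on every array, whereas the orientation means of FUBP1 and ELAVL1 differ in sign.

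Among the factors that bind AU-rich elements, KHSRP was the member with the largest rise. Its gene mean was 0.36, 0.25 and 0.35 with UV in Cy5 and 0.28, 0.20 and 0.32 with UV in Cy3. All 6 arrays lay above 0, and the orientations overlapped. The mean rise was 0.29 on the log2 scale, or 1.226-fold (SE 0.0287, n = 3, limma adjusted p = 0.00179). The rise was spread over the gene, since 86 of its 94 tested features were called higher, 0 were called lower, and 93 lay above 0. By comparison, 26.3% of all 34301 tested features were called higher and 28.2% lower. The features of KHSRP ranged from -0.01 to 0.41, with a median of 0.32 and an SD of 0.0886, against a median SD of 0.135 over the 466 genes with 3 or more features. The highest of them rested on 1 array, dye-swap array 1, where it read 2.08, and it was not called.

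FUBP1, the close relative of KHSRP, was not called. The mean over its features was -0.15, 0.00 and -0.13 with UV in Cy5 and 0.00, 0.15 and 0.03 with UV in Cy3, so the sign differed between orientations. Over the 3 replicates it was -0.02 (SE 0.036, n = 3, limma adjusted p = 0.695), and without replicate 2 it was -0.06 with an adjusted p of 0.0285, whereas without replicate 1 it was 0.01. The difference of KHSRP minus FUBP1 was 0.40, 0.15 and 0.38 in the 3 replicates (mean 0.31, SD 0.136). KHSRP was higher in 3 of 3, for which the exact two-sided sign-flip test gives p = 0.25, the smallest it can give with 3 replicates. The features of FUBP1 ran in both directions, with 8 called lower, 9 called higher and 22 not called of 39. A single feature stood apart, number 29949 in the array table. It read -0.70, -0.41 and -0.55 with UV in Cy5 and -0.90, -0.78 and -0.94 with UV in Cy3, while the next lowest feature of the gene was at -0.20.

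ELAVL1, which stabilises many AU-rich transcripts, was slightly lower, and its orientation mean was below 0 only with UV in Cy3. Averaged over its features, it was -0.05, 0.05 and 0.01 with UV in Cy5 and -0.16, -0.16 and -0.21 with UV in Cy3, and the orientations did not overlap. The mean was -0.08 (SE 0.0196, n = 3, limma adjusted p = 0.0202). The call was lost without replicate 1 (-0.08, adjusted p = 0.151) and without replicate 3 (-0.08, adjusted p = 0.157). Most features were near 0, with a median of -0.02, and 10 of 39 were called lower and 0 higher. The lowest, feature 3854, averaged -0.62 (SE 0.0391). It was -0.51, -0.13 and -0.22 with UV in Cy5 and -0.87, -0.94 and -1.04 with UV in Cy3, below 0 on all 6 but further down with UV in Cy3.

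TIA1 had the largest fall among the 8 genes. Its gene mean was -0.49, -0.30 and -0.43 with UV in Cy5 and -0.27, -0.29 and -0.46 with UV in Cy3. All 6 values lay below 0, and the orientations overlapped. The fall was 1.296-fold (log2 ratio -0.37, SE 0.0342, n = 3, limma adjusted p = 0.00152), just short of 1.3-fold, which is 0.379 on the log2 scale. Of its 61 features, 54 were called lower, 4 higher and 3 not, beside 28.2% lower and 26.3% higher of all tested features.

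TIA1 lay so near the 1.3-fold limit that several settings took it across. Its log2 ratio was -0.3815 after quantile normalization (adjusted p = 0.000393), -0.41 on direct arrays alone, -0.41 without replicate 2 and -0.40 with the median of features. It was -0.34 on dye-swap arrays alone and -0.34 without replicate 3, short of the limit. The gene also had 2 features that read 3.19 and 3.53 on dye-swap array 1, against -0.62 to -0.14 on the other 5 arrays. Such lone values, over 1.5 from the median of the other arrays of a feature, occurred in 127 features, or 0.316% of the named ones, and dye-swap array 1 held 97 such values against 7 to 12 on each other array. With lone values left out, an alternative added after the data were seen, TIA1 fell 1.314-fold (log2 ratio -0.39, SE 0.038, adjusted p = 0.0018) and so passed both limits, as did 19% of all tested genes. The same step removed 1 value each of KHSRP and TIAL1 and left their log2 ratios at 0.29 and -0.24.

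TIAL1, the paralogue of TIA1, fell with little spread between replicates. The gene averaged -0.21, -0.22 and -0.23 with UV in Cy5 and -0.24, -0.27 and -0.26 with UV in Cy3, all below 0 within a narrow range. The mean was -0.24 (SE 0.0169, n = 3, limma adjusted p = 0.000786). TIA1 minus TIAL1 was -0.16, -0.05 and -0.20 in the 3 replicates (mean -0.14, SD 0.0785), below 0 in 3 of 3, and the exact sign-flip test again gave p = 0.25, the smallest possible here.

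The features of TIAL1 were spread widely around this mean. Of 117 tested features, 67 were called lower, 23 higher and 27 not. They ranged from -0.83 to 0.36, with 30 below -0.5 and 37 above 0, and their SD was 0.324. No feature of TIAL1 lay between -0.24 and -0.12, the widest gap, which left 66 features with a mean of -0.49 below it and 51 features with a mean of 0.09 above it. The mean of the upper group was 0.07, 0.02 and 0.03 with UV in Cy5 and 0.18, 0.11 and 0.14 with UV in Cy3, while the lower group averaged -0.41, -0.41 and -0.42 with UV in Cy5 and -0.56, -0.56 and -0.58 with UV in Cy3. The groups were formed from these values, so they are a description.

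**Figure D2:**
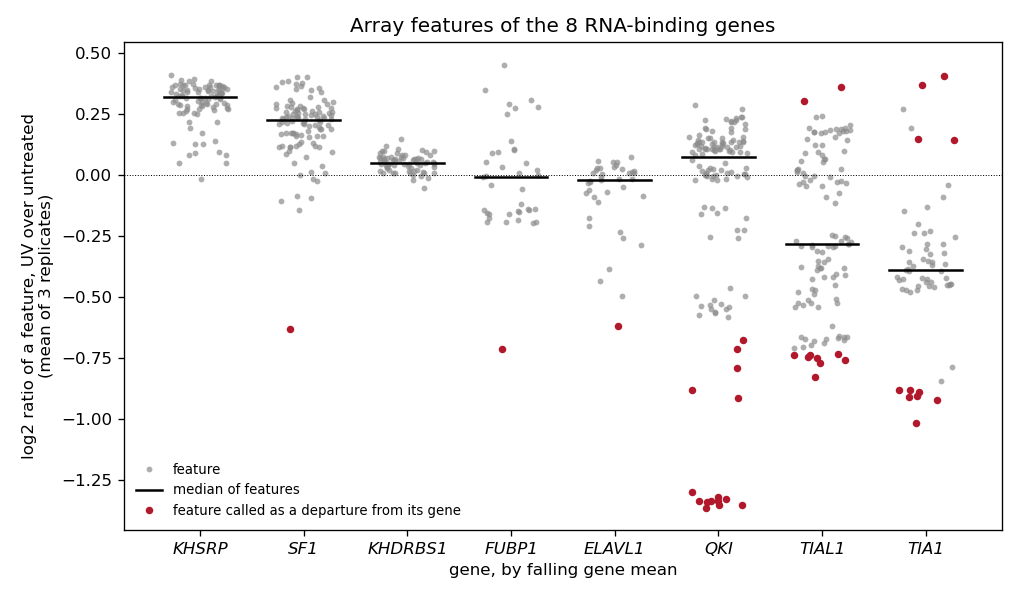
Each point is an array feature, with its log2 ratio of UV over untreated (mean of 3 replicates) on the y axis and its gene on the x axis. Black lines are medians and red points are features called as departures from their gene; KHSRP and KHDRBS1 form compact clouds, whereas QKI, TIAL1 and TIA1 split into groups, with 10 features of QKI near -1.34.

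KHDRBS1, of the STAR family, was not called. It stood at 0.05, 0.10 and 0.04 with UV in Cy5 and 0.07, 0.00 and 0.04 with UV in Cy3, with a mean of 0.05 (SE 0.0163, n = 3, limma adjusted p = 0.0508). It passed without replicate 2 (adjusted p = 0.0328) and without lone values (adjusted p = 0.0477). It also passed after quantile normalization (adjusted p = 0.0367) and among genes with 3 or more features alone (adjusted p = 0.0208). Its 70 tested features ranged from -0.05 to 0.15, with 8 called higher, 0 lower and 62 not. Their SD of 0.0352 stood at the 0.858 percentile of the 466 genes with 3 or more features, so that nearly all other genes varied more among their features.

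QKI was the opposite case, with an SD over features of 0.442, at the 96.1 percentile. Its gene mean was -0.21, -0.12 and -0.19 with UV in Cy5 and -0.15, -0.03 and -0.10 with UV in Cy3, all below 0. The mean was -0.13 (SE 0.0273, n = 3, limma adjusted p = 0.0152). The call was lost without replicate 1 (-0.11, adjusted p = 0.0779) and without replicate 3 (-0.12, adjusted p = 0.113). The median of its features had the other sign, at 0.07, and 79 of 128 tested features lay above 0, of which 47 were called higher. When each array was summarised by the median feature, the log2 ratio was 0.03 (adjusted p = 0.479). KHDRBS1 minus QKI, on means, was 0.24, 0.12 and 0.19 in the 3 replicates (mean 0.18, SD 0.0582, exact p = 0.25). The 3 pairs of related genes all had the same adjusted p of 0.25.

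Below -0.5 lay 26 features of QKI. Of these, 10 formed a tight group between -1.36 and -1.30, separated by 0.387 from the next feature at -0.92. Their mean was -1.33, -1.22 and -1.30 with UV in Cy5 and -1.49, -1.26 and -1.43 with UV in Cy3, with an SD among the 10 features of 0.037 to 0.0693 on an array. The other 118 features averaged -0.11, -0.03 and -0.10 with UV in Cy5 and -0.04, 0.08 and 0.01 with UV in Cy3. The tight group lay below the rest on all 6 arrays and in both orientations. It was formed at the widest gap in these values, so its distance from the rest is a description. Whether these features are copies of 1 probe or neighbouring probes of 1 exon or junction could not be told, as no probe sequence or position was used here.

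SF1, the branch point binding protein, was higher after UV. On single arrays it averaged 0.18, 0.07 and 0.12 with UV in Cy5 and 0.22, 0.24 and 0.29 with UV in Cy3, all above 0, with the orientations just apart. The mean was 0.19, or 1.139-fold (SE 0.0203, n = 3, limma adjusted p = 0.00238). Of 108 tested features, 87 were called higher, 3 lower and 18 not. The median was 0.23 and the highest 0.40, while a single feature lay at -0.63, well below the next at -0.14.

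To ask which features changed apart from their gene, as alternative splicing would make them do, each feature was set against the average of all other features of the same gene. This departure was called at an adjusted p of 0.05 with a fold over 1.4. Only the fold was taken from the methods of the study, whose z score and p-value limits for splicing were not applied. Of 656 tested member features, 33 were called lower than their gene and 6 higher, or 5.03% and 0.915%. Over all 33990 tested features, 2.16% were called lower and 1.76% higher. QKI gave 15 of the 33, TIAL1 8, TIA1 7, and FUBP1, ELAVL1 and SF1 1 each, while all 6 that were higher belonged to TIA1 (4) or TIAL1 (2). KHSRP and KHDRBS1 had 0 departures in either direction. The balance of lower and higher departures changed with the fold limit. Without one, 144 member features were lower and 205 higher, beside 25.1% lower and 24.4% higher of all tested features. With a fold over 2 there were 10 lower, all of them the tight group of QKI, and 0 higher, beside 0.203% and 0.179% of all tested features. At a fold over 1.4, departures numbered 31 lower and 11 higher on direct arrays alone, and 37 lower and 22 higher on dye-swap arrays alone. The shares over all features were not counted for 1 orientation alone.

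In QKI the lowest departure was that of feature 12093, at -1.24 relative to the rest of the gene on the log2 scale (SE 0.027, n = 3, limma adjusted p = 3.26e-06). It read -1.38, -1.30 and -1.31 with UV in Cy5 and -1.50, -1.27 and -1.43 with UV in Cy3. All 10 features of the tight group were called, with departures from -1.24 to -1.18. As the group was formed from the same values, these calls are no separate support for it. The other 5 called features of QKI had log2 ratios of -0.92 to -0.68.

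TIA1 departed in both directions. Its lowest feature, 9106, read -1.11, -0.66 and -0.87 with UV in Cy5 and -1.20, -0.98 and -1.27 with UV in Cy3, a departure of -0.65 (SE 0.0485, adjusted p = 0.000112). It belonged to 9 features between -1.01 and -0.79, a group formed from these values, of which 7 were called. The highest feature, 13669, read 0.30, 0.51 and 0.35 with UV in Cy5 and 0.37, 0.57 and 0.34 with UV in Cy3, while the gene as a whole fell. Its departure was 0.79 (SE 0.0325, adjusted p = 1.5e-05). Both named features kept their sign on all 6 arrays. On direct arrays alone the departure of 9106 was -0.4825, just short of the 1.4-fold limit of 0.485, whereas 13669 kept its call.

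In TIAL1 the lowest called feature, 8843, averaged -0.83 (departure -0.60, SE 0.03, adjusted p = 2.9e-05). It read -0.71, -0.62 and -0.71 with UV in Cy5 and -0.97, -0.95 and -1.02 with UV in Cy3. The highest, 42122, averaged 0.36 (departure 0.60, SE 0.038, adjusted p = 5.9e-05). It read 0.21, -0.04 and 0.18 with UV in Cy5 and 0.51, 0.59 and 0.72 with UV in Cy3, so the size of its rise differed between orientations. The departures of feature 29949 of FUBP1 (-0.72, SE 0.0273, adjusted p = 1.2e-05) and feature 3854 of ELAVL1 (-0.55, SE 0.031, adjusted p = 4.3e-05) were the only ones called in those genes. On direct arrays alone both fell short of the 1.4-fold limit of 0.485, at -0.47 and -0.30. So did 8843 and 42122 of TIAL1, at -0.47 and 0.34. All of them passed the limit on dye-swap arrays alone.

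**Figure D3:**
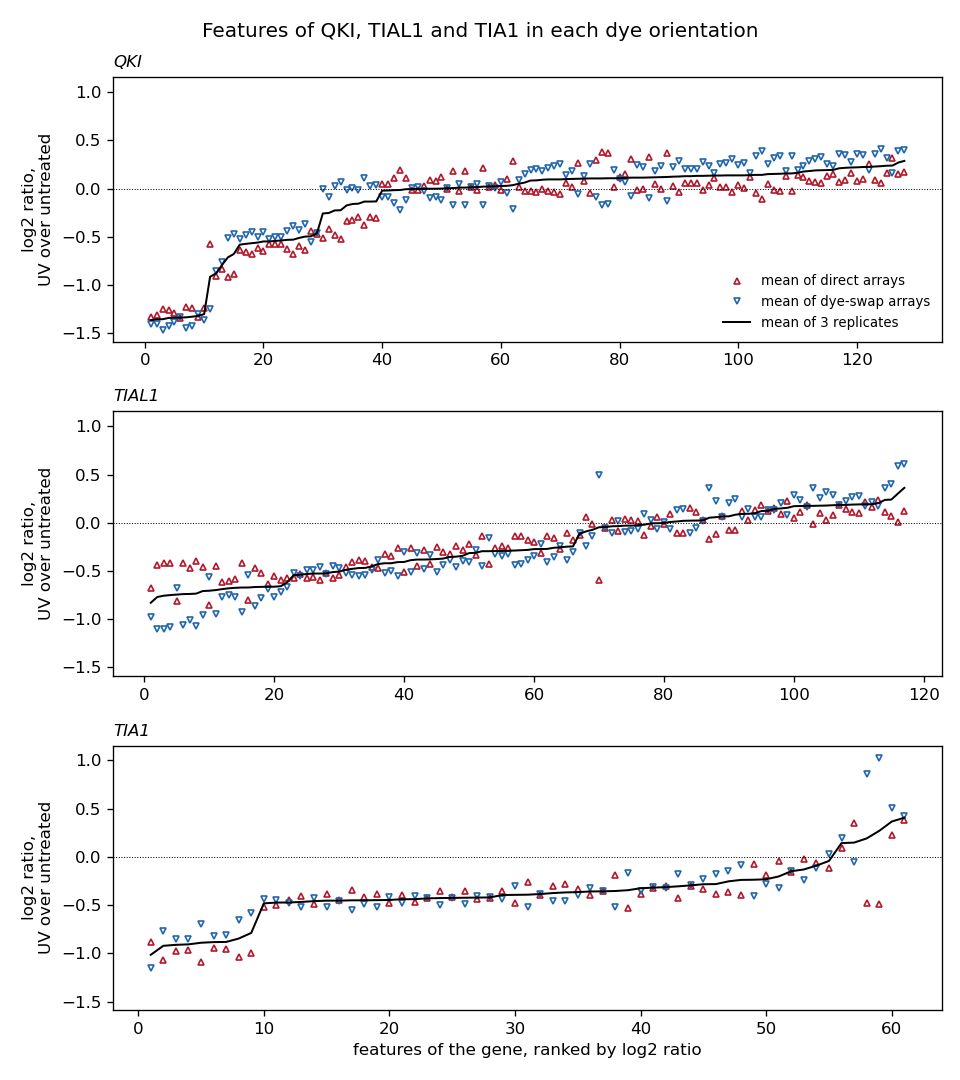
The tested features of QKI, TIAL1 and TIA1 are ranked by log2 ratio on the x axis, with the log2 ratio of UV over untreated on the y axis. Triangles are the mean of the direct arrays (upward) or of the dye-swap arrays (downward) and the line is the mean of 3 replicates; the 10 lowest features of QKI lie near -1.3 in both orientations, the lowest features of TIAL1 lie further down on the dye-swap arrays, and 2 features of TIA1 lie far above 0 in the dye-swap mean only.

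In 3 of the 8 genes the features carried a second RefSeq transcript accession, and in each the second stood lower than the first. This comparison was chosen after the values were seen. For TIAL1 it was 11 features of NM_003252 against 106 tested features of NM_001033925. The 11 averaged -0.73, all were called lower and their range was -0.83 to -0.67, whereas the other 106 averaged -0.19 and ranged from -0.75 to 0.36. The difference of the second minus the first was -0.55 (SE 0.0393, n = 3, limma adjusted p = 3.07e-06). It was -0.27 with UV in Cy5 and -0.83 with UV in Cy3. Of the 8 lower departures called in TIAL1, 7 belonged to these 11 features, so this difference is no separate support.

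For QKI and SF1 the second accession had 1 feature each. In QKI the feature of NM_006775 averaged -0.92, and the difference was -0.79 (SE 0.0381, adjusted p = 3.22e-07), or -0.41 with UV in Cy5 and -1.17 with UV in Cy3. The tight group of 10 lower features carried the first accession, NM_206853, as did 14 of the 15 called departures of QKI. In SF1 the single low feature, 12746 of NM_201997, read -0.26, -0.37 and -0.49 with UV in Cy5 and -0.86, -0.87 and -0.94 with UV in Cy3. Its difference from the features of NM_004630 was -0.83 (SE 0.0462, adjusted p = 6.5e-07). As NM_201997 had 1 feature, this equals the departure of that feature from its gene, also -0.83. The feature of NM_006775 in QKI was likewise among the departures called above, so neither difference is separate support. The direction was the same in both orientations for all 3 genes, but the size was larger on the dye-swap arrays. A lower second accession was common on this array: of 81 genes tested, 55.6% were called lower and 8.64% higher, with a median of -0.16. Of the 84 genes with such a pair of accessions, 81 had 1 feature for the second, unlike TIAL1 with 11.

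The 2 dye orientations differed for 3 members in a test of the direct minus the dye-swap value, each divided by 2. This half-difference was called for FUBP1 (-0.08, SE 0.0114, adjusted p = 0.00884), ELAVL1 (0.09, SE 0.0166, adjusted p = 0.0148) and SF1 (-0.06, SE 0.0185, adjusted p = 0.0479), while 51.9% of all 775 tested genes were called in either direction. For KHSRP and TIA1 it was 0.02 and -0.03, small beside their log2 ratios.

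The genes whose ratios over the 6 arrays were most like those of KHSRP, among 458 other genes with 3 or more features, were FOS, RAVER1 and SSRP1, with root mean square differences of 0.0488, 0.0525 and 0.065. FOS, an early response gene whose mRNA holds an AU-rich element, was at 0.28 (SE 0.0241), RAVER1, a ribonucleoprotein that binds PTB, at 0.26 (SE 0.029), and SSRP1, a subunit of the FACT histone chaperone, at 0.24 (SE 0.0182). Nearest to TIA1 were CLK4, a kinase of SR proteins, at -0.38 (SE 0.0196), ZMYM2, a zinc finger protein, at -0.34 (SE 0.0334) and SRSF1, an SR protein, at -0.45 (SE 0.0418). Their root mean square differences were 0.0512, 0.0685 and 0.0754.

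The related gene lists moved in both directions, like the 8 genes. Of 9 tested genes for AU-rich element binding and mRNA stability, 6 were higher and 3 lower, with a median log2 ratio of 0.08. The largest fall was that of HNRNPDL, a relative of the AU-rich element binding protein HNRNPD (-0.41, SE 0.0309, adjusted p = 0.000923), and the largest rise that of PABPC4, a poly(A) binding protein (0.12, SE 0.0274, adjusted p = 0.0191). PABPC4 averaged 0.24 with UV in Cy5 and 0.00 with UV in Cy3. The paralogues of ELAVL1, given for their kinship after the values were seen, lay at 0.10 for ELAVL2, -0.27 for ELAVL3 (1 feature) and 0.07 for ELAVL4, and all 3 were called. As ratios hold no level and dim features were not filtered, whether these paralogues were expressed was not tested. Without replicate 1 this list had 1 higher call, and without replicate 3 it had 0. On direct arrays alone it had 2 higher calls, and on dye-swap arrays alone 4.

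Of 10 other KH domain genes, 4 were lower, 2 higher and 4 not called, with a median of 0.02. KHDRBS2, a paralogue of KHDRBS1, had the largest fall (-0.55, SE 0.0371, adjusted p = 0.000665), on 1 feature. PCBP2, a poly(C) binding protein, had the largest rise (0.13, SE 0.0177, adjusted p = 0.0049), at 0.35 with UV in Cy5 and -0.10 with UV in Cy3. The 2 higher calls of this list were 1 without replicate 1 and 0 without replicate 3. On direct arrays alone there was 1 higher call, and on dye-swap arrays alone there were 3.

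For U1 snRNP, the particle that TIA1 helps to bind, 3 of 7 tested genes were lower, 2 higher and 2 not called, with a median of -0.05. The extremes were the U1-associated splicing factors RBM25 (-0.89, SE 0.0654, adjusted p = 0.000849) and PRPF40B (0.46, SE 0.0167, adjusted p = 0.000185), both on 1 feature. Without replicate 3 this list had 1 higher call. A further list held 16 tested genes that act at the branch point and 3′ splice site, as SF1 does. Of these, 7 were higher, 2 lower and 7 not called, with a median of 0.06. DDX46, a helicase that helps U2 snRNP to bind, fell most (-0.16, SE 0.0286, adjusted p = 0.00998), and SF3B4, a subunit of the SF3B complex, rose most, on 1 feature (0.39, SE 0.0581, adjusted p = 0.00613). Without replicate 3 this list had 2 higher and 0 lower calls, and without replicate 2 it had 4 lower ones. On dye-swap arrays alone it had 2 higher and 2 lower calls, and on direct arrays alone 8 higher and 4 lower.

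Transcripts with AU-rich elements were split evenly, with 5 lower, 5 higher and 1 not called of 11, and a median of 0.01. MCL1, an antiapoptotic protein, fell by 1.24 on the log2 scale (SE 0.0195, adjusted p = 4.3e-05), and TNF, a cytokine, had the largest rise at 0.45 (SE 0.0263, adjusted p = 0.00048). MYC, whose gene FUBP1 binds, was at -0.70 (SE 0.0162, adjusted p = 8.5e-05), and FUBP1 was not called. MYC was named for this link after its value was seen, and the link was not tested. The 5 higher calls were 3 without replicate 1 and 2 without replicate 3. On dye-swap arrays alone there were 3 higher calls, against 5 on direct arrays alone. The medians of the 5 lists ran from -0.05 to 0.08, beside -0.03 over all tested genes.

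**Figure D4:**
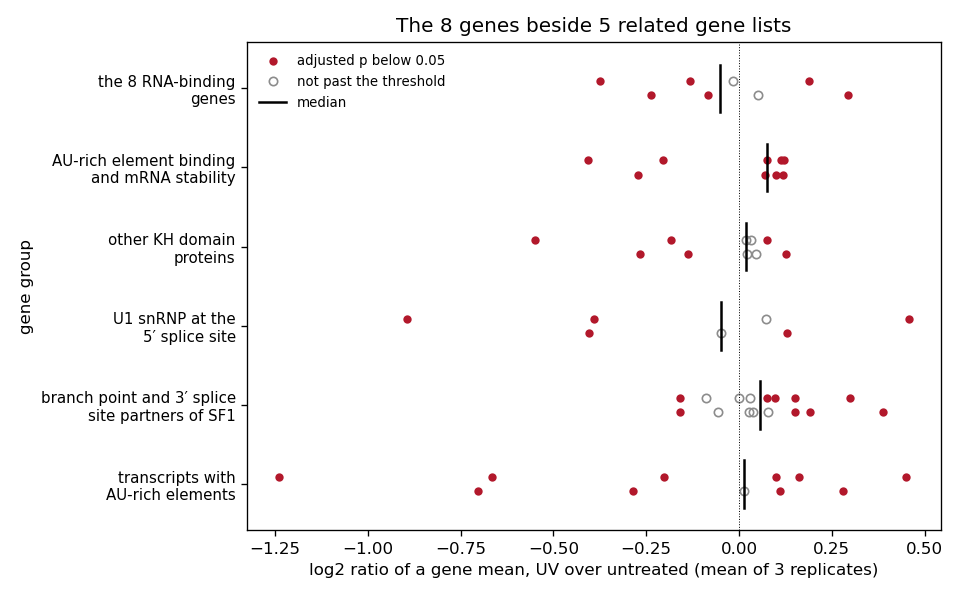
The x axis is the log2 ratio of a gene mean, UV over untreated (mean of 3 replicates), and each row is a gene group. Points are genes, filled where the adjusted p was below 0.05, and black lines are medians; the medians of all groups lie close to 0 while single genes such as MCL1, at -1.24, lie far out.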

How the data were processed

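The deposited values were log2 ratios of two-colour Agilent arrays. The authors corrected background by normexp and normalized by LOWESS. Array medians lay between -0.01 and 0.01. Dye-swap columns had been turned already, and UV over untreated followed from the dyes in the labels; the sign was also checked once against the study's own values, which were not used as data. Scanner signals were not used here, so dim features were not filtered. Empty cells made up 15.1% to 19.2% of an array. The number of arrays limits the precision.

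Features were named from the platform annotation through a RefSeq symbol table, and 5074 had no name. Of the 683 member features, 12 had no value on any array and 656 were tested. Features were averaged per gene and array, then both arrays per replicate. An intercept was fitted by limma 3.58.1 (R 4.3.3), two-sided, and p-values were adjusted over all genes or features by Benjamini-Hochberg, with a threshold of 0.05. A test needed 2 replicates with both orientations, and a departure 3 or more features in the gene. The fits were tested on simulated data. Replicate numbers come from the labels; deviations of same-numbered direct and dye-swap arrays correlated at -0.00695, 0.452 and 0.101, and those of direct array 1 and dye-swap array 3 at 0.425.

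Members and lists were chosen with earlier results of these data known. Named were all 8 members, the called gene of each list that fell or rose most, the 3 genes nearest to the member that rose most and to that which fell most, and the lowest and highest called departure of each member. Alternatives covered orientation, replicates, replicate block, dye term, scaling, summary, missing values, prior and thresholds.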

Additional observations from a re-analysis of the deposited data

Results flagged for a closer look

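The gene means of 3 members differed between the dye orientations by the test of that difference. The half-difference, direct minus dye-swap, was -0.0772 for FUBP1, whose mean was -0.09 with UV in Cy5 and 0.06 with UV in Cy3. It was 0.0898 for ELAVL1, whose mean was 0.00 with UV in Cy5 and -0.17 with UV in Cy3, so that its call as lower rested on the dye-swap arrays. It was -0.0639 for SF1, whose mean was 0.12 with UV in Cy5 and 0.25 with UV in Cy3, above 0 in both. By the same limma test 51.9% of all tested genes differed between orientations, and the median size of the half-difference over all genes was 0.063.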

How the results depend on the processing

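The number of members called lower, 4, was 2 at an adjusted p of 0.01, 2 with the median of features, and 0 with a fold over 1.3, while those called higher, 2, were 0 with a fold over 1.3. Leaving out 1 replicate gave 2 to 5 lower and 2 to 3 higher members, 151 to 184 lower and 163 to 241 higher features, and 31 to 37 lower and 5 to 8 higher departures. The lowest counts of members called lower came without replicate 1 and without replicate 3, and the lowest count of higher features without replicate 3. With a fold over 1.3, 111 features were lower and 10 higher, against 181 and 264. The share of all features past that fold was not counted, so these numbers have no background beside them. Departures numbered 144 lower and 205 higher without a fold limit, and 10 lower and 0 higher with a fold over 2. Departures were 31 lower and 11 higher on direct arrays alone, and 37 lower and 22 higher on dye-swap arrays alone, against 33 and 6. The named departures of FUBP1, ELAVL1 and TIAL1, and the lowest of TIA1, were not called on direct arrays alone.

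Reversed signs were found for ELAVL1 on direct arrays alone (0.0049), for FUBP1 on dye-swap arrays alone (0.0604) and without replicate 1 (0.0123), and for QKI with the median of features (0.0275). Without replicate 2 FUBP1 was called lower (-0.0618). On dye-swap arrays alone QKI was no longer called (-0.0918). KHSRP, TIA1, TIAL1 and SF1 kept their call under every alternative except the fold over 1.3. Quantile normalization left the median of all genes at -0.0258, against -0.0267. With a replicate block on the 6 arrays, 4 members were lower and 3 higher, KHDRBS1 being added at an adjusted p of 0.0113, and with no replicate block 3 were lower and 2 higher, ELAVL1 being lost at 0.106. The block correlation of the gene means was -0.508, or 0.375 with a dye term. The paired numbers were borne out by the values for replicate 2 (0.452), but direct array 1 correlated at 0.425 with dye-swap array 3 and at -0.00695 with its own, and the cause of these changes was not tested. The 3 differences between transcript accessions kept their call in every alternative run, -0.27 to -1.17 across orientations, settings and replicates left out.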
